A study of Mus musculus with 12 samples.

Results

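Neurospheres made from adult mouse skin fibroblasts were set against adult skin fibroblasts, to ask what separates the spheres from the cell type they came from. The members were assigned by their labels, not by measured values, and are 3 of the 12 arrays in the series, namely 2 arrays of adult fibroblast-derived neurospheres and 1 array of adult fibroblasts. Array 1 was from spheres given EGF and cAMP, and array 2 from spheres given leukaemia inhibitory factor (LIF), which signals through STAT3. All 3 cultures were of the strain C57BL/6, and the spheres were grown in a medium labelled MHM. The labels give no method of conversion, name no transgene, and leave out whether the fibroblast RNA came from the culture that was converted. The other 9 arrays hold neurospheres from the ganglionic eminence (GE) of the embryo, where ventral forebrain neurons are born, iPS cells (line 38C2), ES cells (line EB3), neurospheres made from those lines, and embryonic fibroblast-derived neurospheres. Of these, the GE, iPS and ES arrays serve below as references for the level that a gene reached, with 1 array each. The strain given for the series does not cover the iPS and ES cells.

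Dermal fibroblasts build and remodel the connective tissue of the skin, and in culture many of them take on the contractile features of myofibroblasts. Neurospheres are floating clusters of dividing neural stem and progenitor cells, which lack the collagen-rich matrix of fibroblasts and carry the proteins of the neuroepithelium. When fibroblasts are reprogrammed to iPS cells with transcription factors, the mesenchymal programme is known to fall and cadherin-based epithelial contacts to appear early. Whether the spheres passed through such a step was not tested.

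Between 41.9% and 46.2% of the probe sets on the 3 arrays reached a signal of 20, against 40.5% to 49.1% over the series. As a sign of RNA quality, the 3′ over 5′ signal ratio of Actb was 1.25 to 1.45 on the 3 arrays and that of Gapdh 0.768 to 0.781. Of the 11 fibroblast markers used to check the label, 11 reached a signal of 20 on the fibroblast array and their summed signal was 33442. The summed signal of these 11 was 931 on array 1 and 5376 on array 2. Of the 11, 7 still reached 20 on array 1 and all 11 on array 2, and 5 were called lower. The 7 measured neural stem cell markers summed to 51.5 in the fibroblasts, 1102 on array 1 and 1834 on array 2, and all 7 reached 20 on both sphere arrays and were called higher. They summed to 14243 on the GE array, 3657.2 on the iPS array and 3488.5 on the ES array, so their sum does not single out neural stem cells. All 7 reached 20 on the GE array, but 4 did on the iPS array, 2 on the ES array and 1 on the fibroblast array. The 6 pluripotent markers summed to 24.5 in the fibroblasts, 2559.5 on array 1 and 6885 on array 2. Their sums were 47.6 on the GE array and 16118 and 18191 in iPS and ES cells. Signals are deposited MAS5 intensities scaled to the same trimmed mean on each array, and each difference is of log2(signal + 5), spheres minus fibroblasts, followed by its standard error (SE). This scale understates the change of dim genes. Signals listed without a label are in the order fibroblasts, array 1, array 2. In bulk RNA, fewer cells of a type and less RNA per cell cannot be told apart.

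Among 13650 genes tested with limma, 2668 were called (19.5%), 1682 of them higher in the spheres (12.3%) and 986 lower (7.22%). The counts of called list members below are to be read beside these shares. A call needed a Benjamini-Hochberg adjusted p under 0.05 and both sphere arrays on the same side of the fibroblast array. Differences past 4-fold on both arrays were counted without any test and were found for 682 higher genes (5.0%) and 548 lower genes (4.01%). Regardless of the test, both arrays lay above the fibroblast array for 6972 genes (51.1%) and below it for 4689 (34.4%). The median difference of all genes was 0.21, and it was -0.01 when every array was scaled to the same median, which turned the split of the calls from 63.0% higher to 47.0% higher. The fibroblast group is a single array whose spread had to be borrowed from the groups with 2, in a fit over all 12 arrays. Since the labels name no repeat cultures and the sphere arrays differ in medium, a p-value covers no more than the spread between arrays within the groups. That spread also holds the difference between iPS and ES origin in other groups, so an SE is not that of the spheres alone. Fewer genes were called without array 1 (1322), without array 2 (1682), or when only the 3 arrays were fitted (1523). With 1 sphere array left out, the other is assumed to vary like the other groups.

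**Figure D1:**
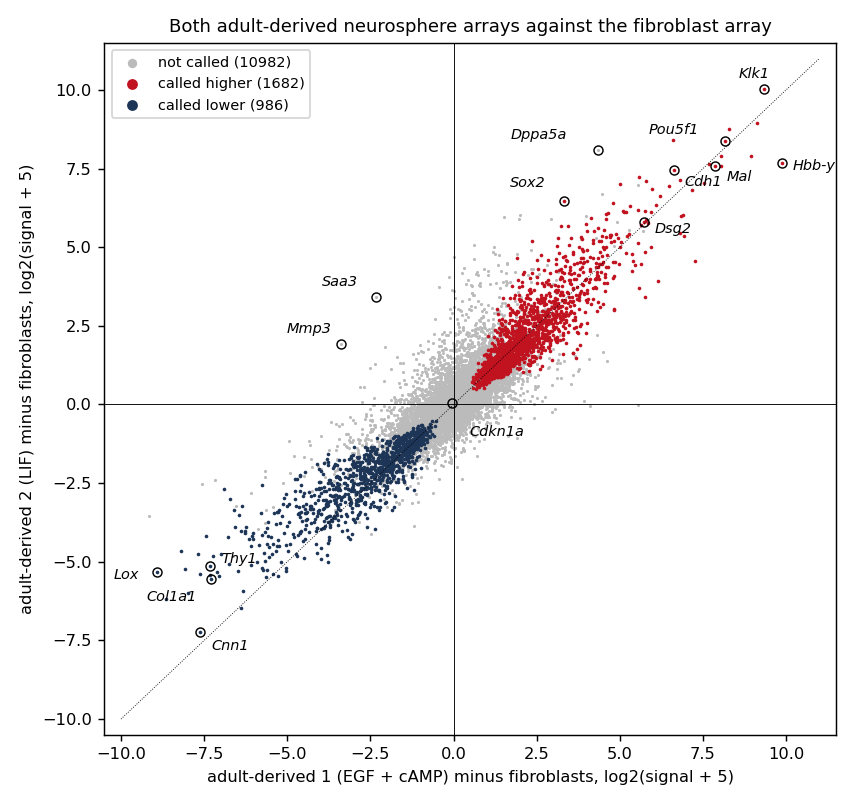
Difference from the fibroblast array on log2(signal + 5) for 13650 genes, array 1 (EGF and cAMP) on the horizontal and array 2 (LIF) on the vertical axis. Each point is a gene, red for the 1682 called higher and blue for the 986 called lower. The dotted line marks equal differences. Most called genes lie along it, while Saa3 and Mmp3 lie on opposite sides of the fibroblasts on the 2 arrays and Sox2 and Dppa5a lie further up for array 2.

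The contractile genes of smooth muscle and myofibroblasts were the list with the lowest median, -3.80 over 20 measured genes, beside 0.21 for all genes. Of these, 15 fell and 0 rose, and at an unadjusted p under 0.05 (34.7% of all genes, both directions) the counts were 18 and 0. Cnn1 encodes calponin, an actin-binding protein of smooth muscle. Its signal was 1271 in the fibroblasts, 1.5 on array 1 and 3.5 on array 2. It fell on both arrays to the level of noise (-7.42 ± 0.41, adjusted p = 0.000155), and the GE, iPS and ES arrays stood at 0.7, 2.1 and 3.3. Myl9, a regulatory light chain of smooth muscle myosin, stood at 4488 in the fibroblasts, 6.1 on array 1 and 56.8 on array 2, a difference of -7.42 ± 1.18, adjusted p = 0.00513. Tagln, the actin-binding transgelin, stood at 4529 in the fibroblasts, 13 on array 1 and 65.5 on array 2 (-6.99 ± 1.09, adjusted p = 0.00487). Acta2, smooth muscle actin, fell from 8338 to 139 and 372 (-5.16 ± 1.05, adjusted p = 0.0121), but the call was lost without array 1 (adjusted p = 0.0586). A dimmer Acta2 probe set, tested on its own, fell from 193 to 1.9 and 1.6 (adjusted p = 0.000454). The intermediate filament gene Des, used as a muscle marker, was near background in the fibroblasts as well, at 31.2, 31.6 and 26.8.

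Genes of this kind are classically driven by serum response factor through the CArG box, so the RefSeq promoters were searched for this motif on both strands, over 250 bases before and 50 after each gene's start. Of the 16 listed genes with a promoter, 2 held a CArG box (12.5%), against 488 of all 27025 genes with a promoter (1.81%). The E2F motif, defined below for replication genes, was also in 2 of the 16 (12.5%), against 1.80% of all. The CArG share is thus not particular to that motif. A match is a description of the letters only, and the window is short. The promoter of Myl9 is shown because it is the listed gene with both a fall of this size and a match. It is the 250 bases before the start on the forward strand of GRCm38.p6, chr2:156775214-156775463, with the CArG box in capitals 161 bases before the start.
Myl9: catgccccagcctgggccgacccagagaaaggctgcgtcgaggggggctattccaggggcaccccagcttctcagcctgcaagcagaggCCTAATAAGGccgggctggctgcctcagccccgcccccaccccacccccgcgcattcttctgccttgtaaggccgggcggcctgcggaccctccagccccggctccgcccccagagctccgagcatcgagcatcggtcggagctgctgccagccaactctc

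Matrix genes were lower as well. Of 23 collagen chains 13 fell and 0 rose (15 and 0 unadjusted), with a median of -3.03. Both sphere arrays were below the fibroblasts for 20 of the 23. Col1a1, the alpha 1 chain of type I collagen, had a signal of 2733 in the fibroblasts, 12.5 on array 1 and 53.7 on array 2 (-6.42 ± 1.49, adjusted p = 0.0196). Col5a1, which regulates the diameter of collagen fibrils, fell from 3945 to 19.5 and 86.7 (-6.38 ± 0.93, adjusted p = 0.00426). Col12a1, a fibril-associated collagen, fell from 3239 to 11.5 and 71.6 (-6.51 ± 1.02, adjusted p = 0.00495). The 2 sphere arrays were not equally low. Col1a2, the partner chain of Col1a1, stood at 8334 in the fibroblasts, 39.5 on array 1 and 1449 on array 2, and Col3a1 at 8772 in the fibroblasts, 286 on array 1 and 1947 on array 2. Neither passed on its brightest probe set, with differences of -5.03 ± 2.24, adjusted p = 0.149 for Col1a2 and -3.54 ± 1.73, adjusted p = 0.184 for Col3a1. Both other Col1a2 probe sets fell when each was tested on its own, the brighter from 5955 to 6.1 and 314 (adjusted p = 0.0449) and the dimmer from 52.7 to 3.2 and 3.9 (0.0215). For 21 of the 23 collagens array 2 was above array 1, and without array 1 the collagens that fell were 3, not 13, and Col1a1 was not called (adjusted p = 0.0868).

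The enzymes that modify and crosslink collagen had 8 of 17 lower and 1 higher (0 higher without array 1), with a median of -2.02. Lox, the lysyl oxidase that crosslinks collagen and elastin, stood at 7295 in the fibroblasts, 10.1 on array 1 and 178 on array 2 (-7.12 ± 1.60, adjusted p = 0.0177), and its call was lost without array 1 (adjusted p = 0.0643). P4ha2, a prolyl hydroxylase subunit, fell from 1811 to 32 and 78 (-5.03 ± 0.79, adjusted p = 0.00503). The collagen chaperone Serpinh1, at 5143, 1077 and 1475, and the procollagen C-proteinase enhancer Pcolce, at 6147, 1988 and 4119, did not pass (adjusted p = 0.308 and 0.555). Pcolce was bright on both sphere arrays and stood at 7 on the GE array. The single gene that rose in this list was Pcolce2, a relative of Pcolce, named here after its values were seen, at 49.8, 586 and 386 (3.13 ± 0.70, adjusted p = 0.0178).

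Among elastic fibre, proteoglycan and matricellular genes, 13 of 26 fell and 0 rose (19 and 0 unadjusted), with a median of -3.49. Ltbp2, a microfibril-associated protein of the latent TGF-beta binding family, went from 1039.6 to 8.1 and 12.2 (-6.12 ± 0.40, adjusted p = 0.000255). Thbs1 encodes thrombospondin 1 and fell from 6658 to 19.9 and 174 (-6.64 ± 1.17, adjusted p = 0.00726). Tnc, tenascin C, is made by wound fibroblasts and by neural stem cells alike. It fell from 5410.3 to 36 and 118 (-6.25 ± 1.07, adjusted p = 0.00663) and was also lower than on the GE array, which stood at 824 (adjusted p = 0.043). Fibronectin, Fn1, stood at 6476, 2186 and 2364 and did not pass (adjusted p = 0.166). Fbln1, a basement membrane protein, had close signals on the 3 arrays, at 97.8, 84.3 and 99.9. Of 19 matrix proteases and their inhibitors 13 fell and 0 rose (15 and 0 unadjusted), 7 without array 1. The membrane metalloprotease Adam12 fell from 668 to 15.6 and 13.2 (-5.12 ± 0.64, adjusted p = 0.00251), while Plaur, the urokinase receptor, stood at 289.8, 258 and 296.

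Fibroblast surface and stromal genes split. Of 20 measured, 9 fell (5 without array 1) and 2 rose, and the median was -2.62. Thy1, the surface glycoprotein CD90, stood at 4690 in the fibroblasts, 24.4 on array 1 and 128 on array 2 (-6.23 ± 1.05, adjusted p = 0.0063). The PDGF receptor Pdgfra fell from 1183 to 18.2 and 65.9 (-4.87 ± 0.90, adjusted p = 0.00861), as did Pdgfrb, from 2199 to 23.9 and 143 (-5.07 ± 0.96, adjusted p = 0.00921). The 2 that rose were Nt5e, the ectonucleotidase CD73, at 13.6, 416 and 425, and Cd34, a sialomucin, at 23.2, 446 and 323, both named after their values were seen (adjusted p = 0.00251 and 0.00472). The hyaluronan receptor Cd44 stood at 3865 in the fibroblasts, 1668 on array 1 and 2592 on array 2 and did not pass (adjusted p = 0.498), while a dimmer probe set fell from 672 to 202 and 239 (adjusted p = 0.0426). S100a4, a calcium-binding protein of motile mesenchymal cells, stood at 6338, 2167 and 2246. Both were far dimmer in ES cells, at 7.8 for Cd44 and 0.7 for S100a4.

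Of 22 transcription factors of mesenchyme, 4 fell and 0 rose (8 and 0 unadjusted), against 7.22% of all genes, and 2 fell without array 2. The median was -1.48. Twist2, a bHLH factor of dermal fibroblasts, fell from 659.9 to 33.9 and 20.2 (-4.41 ± 0.93, adjusted p = 0.0138, and 0.0543 for the adjusted p without array 2). Prrx2, a homeodomain factor of dermal mesenchyme, fell from 226 to 6.8 and 25.5 (-3.60 ± 0.70, adjusted p = 0.0099). Its relative Prrx1 stood at 1833, 222 and 449.9 on its brightest probe set and was not called (adjusted p = 0.115), but 3 of its other 4 probe sets fell (adjusted p = 0.0167, 0.0236 and 0.00653), and it was called lower by the mean of probe sets (0.023) and with a pseudocount of 20 (0.0462). Snai2, a repressor of Cdh1, stood at 1039.6, 82.7 and 138 and just missed (adjusted p = 0.0532). It was called lower with a block on cell line origin, iPS or ES (0.0439), without any 1 of the iPS, ES, primary or secondary neurosphere arrays (0.0292 to 0.0484), and on its other probe set, at 363, 16.5 and 30.3 (0.0105). Twist1 stood at 250.1 in the fibroblasts, 81.6 on array 1 and 237 on array 2 and Tbx15, a T-box factor of the dermis, at 438, 304 and 207, with adjusted p = 0.616 and 0.441. A pseudocount of 20 gave 8 lower factors. Zeb2 also fell (-2.03 ± 0.47, adjusted p = 0.0196), a call lost when only the 3 compared arrays were fitted. Other Zeb2 probe sets, tested on their own, fell from 300.7 to 47.7 and 47.4 and from 109.3 to 36.5 and 22.3 (adjusted p = 0.0228 and 0.0272). A dimmer one, at 12.3, 22 and 9.7, had the opposite sign (adjusted p = 0.808).

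The TGF-beta pathway had 5 of 22 genes lower and 0 higher (10 and 1 unadjusted), 3 without array 1 and 8 with every array at the same median, and 1 rose with the block on origin. Over all genes 7.22% were called lower and 12.3% higher. The genes of this pathway that fell most were the activin subunit Inhba, from 1277 to 20.3 and 36 (-5.31 ± 0.97, adjusted p = 0.0081), the coreceptor Tgfbr3 and the ligand Tgfb3. Tgfbr3 went from 2616 to 60.6 and 242 and was not called without array 1 (adjusted p = 0.0763). The signalling receptor Tgfbr2 stood at 2619, 789 and 1377 and the transducers Smad2, Smad3 and Smad4 had close signals on the 3 arrays, at 204, 223 and 226 for Smad2, 323, 288 and 328 for Smad3 and 951, 1109 and 979 for Smad4.

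Of 19 growth factor receptors 3 rose and 3 fell, and 5 fell without either primary neurosphere array. Over all genes 12.3% were called higher and 7.22% lower. Beside the PDGF receptors, the LIF coreceptor Il6st fell. Those that rose were Kit, the stem cell factor receptor, from 0.8 to 94.1 and 87.4 (4.04 ± 0.51, adjusted p = 0.00251), Lifr, the LIF receptor, named after its values were seen, at 109, 338 and 603, and Erbb3, a neuregulin receptor, at 6.6, 117 and 277. Erbb3 was not called without array 2 (adjusted p = 0.0936), and Il6st not without array 1 (0.0521).

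**Figure D2:**
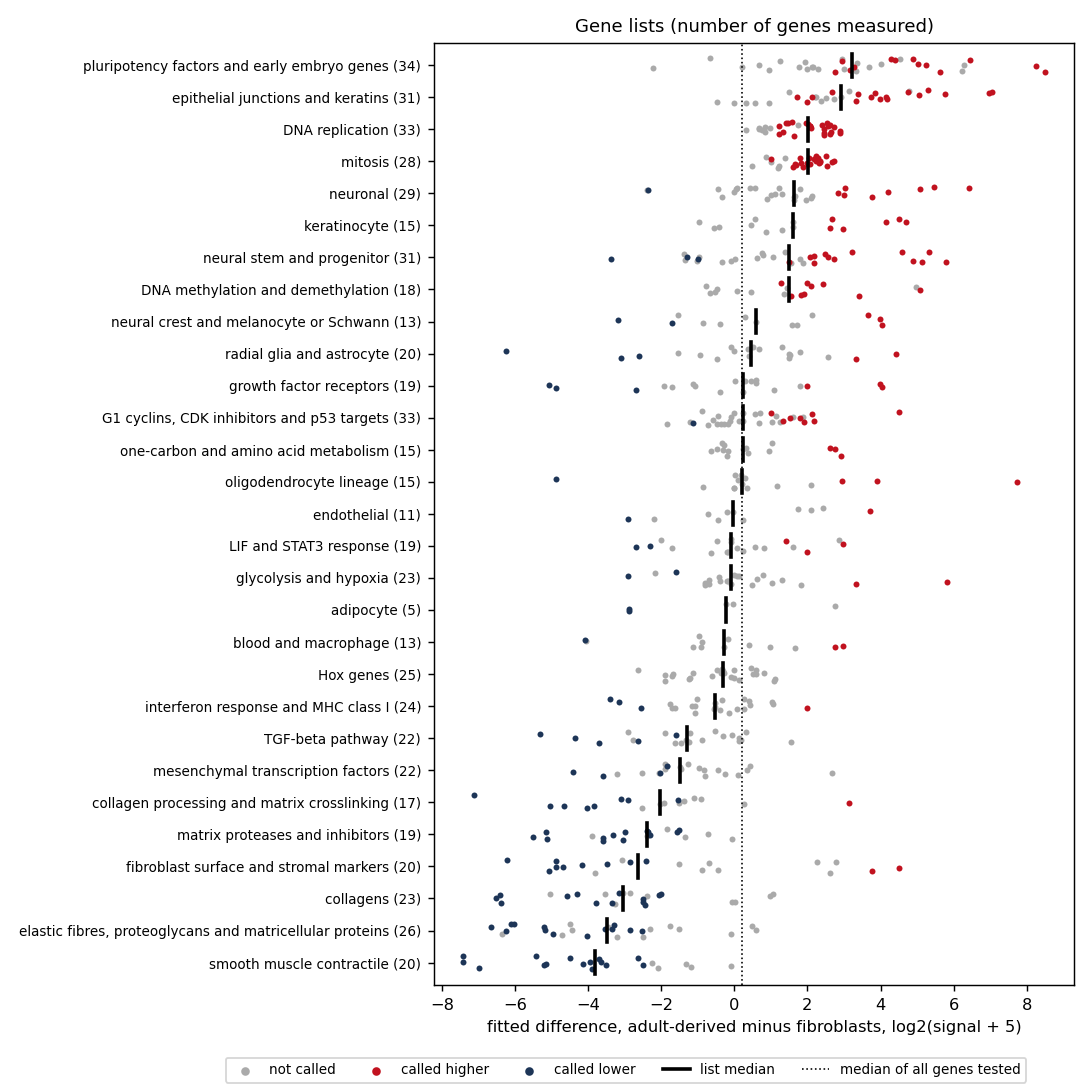
Fitted difference between spheres and fibroblasts for the members of 29 gene lists, on log2(signal + 5), each point a gene, red if called higher, blue if called lower and grey otherwise. Black bars are list medians and the dotted line is the median of all genes, 0.21. Contractile, matrix and collagen genes lie to the left, and pluripotency, epithelial, replication and mitosis genes to the right.

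Epithelial junction and keratin genes formed the counterpart. Of 31 measured, 17 rose and 0 fell (23 and 0 unadjusted), with a median of 2.91, and both arrays were above the fibroblasts for 29. Cdh1, E-cadherin, the adhesion molecule of epithelia and pluripotent cells, stood at 0.4 in the fibroblasts, 529 on array 1 and 937 on array 2 (7.04 ± 1.12, adjusted p = 0.00513). It stood at 5.2 on the GE array and at 1792 and 2179 in iPS and ES cells. Dsg2, a desmosomal cadherin, rose from 3.3 to 435 and 455 (5.76 ± 1.03, adjusted p = 0.00766). Epcam, an epithelial adhesion molecule, rose from 1.2 to 692 and 865 (6.97 ± 1.53, adjusted p = 0.0161) on its brighter probe set, and lost the call without either sphere array (adjusted p = 0.0568 without array 1 and 0.0565 without array 2). The count fell to 11 without array 1 and to 7 without array 2, and to 11 without either embryonic fibroblast-derived array, which enter the shared spread. The simple keratin Krt18 was at 12.6, 18.8 and 270.1 and did not pass (adjusted p = 0.272).

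The N-cadherin gene Cdh2, which mesenchyme and neuroepithelium share, fell from 1031 to 388 and 442 (-1.31 ± 0.37, adjusted p = 0.0414). This call was lost without array 1 (adjusted p = 0.141), array 2 (0.0908), either primary neurosphere array (0.051 and 0.0505) or either secondary one (0.0626 and 0.0624). Another Cdh2 probe set, tested on its own, fell further, from 701.7 to 134.8 and 136.6 (-2.33, adjusted p = 0.00266). Vimentin, Vim, the intermediate filament of mesenchymal and neural progenitor cells, fell from 8627 to 4483 and 4129 (-1.0 ± 0.17, adjusted p = 0.00688) and remained above the iPS and ES signals of 989.8 and 1062.

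Keratinocyte genes had 6 of 15 higher and 0 lower (9 and 1 unadjusted). Beside Perp, described with the p53 targets, they were the stress and appendage keratins Krt6a and Krt17, at 5.2, 56 and 63.3 and 0.7, 22.6 and 38.7, the 14-3-3 protein Sfn, at 0.5, 17.7 and 76.4, and a pair of integrins. Krt17 and Sfn were named after their values were seen, and Krt6a has a near-identical neighbour, so its signal is uncertain. Itgb4, the beta 4 integrin of hemidesmosomes, rose from 1.8 to 189.9 and 154 (4.69 ± 0.47, adjusted p = 0.00125), and its partner Itga6, also a neural stem cell integrin, from 60.2 to 1270.5 and 1042 (4.15 ± 0.48, adjusted p = 0.00181). The defining keratins of the basal layer, Krt5 and Krt14, were at 25, 14.1 and 21.7 and 3.2, 10.1 and 35.7, with another Krt14 probe set at 1.3, 13.2 and 15.1 (adjusted p = 0.0259), and the factor Trp63 was at 3.8, 10 and 26. The 5 fixed keratinocyte markers summed to 78.3, 111 and 160, against 162 on the GE array.

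Pluripotency and early embryo genes had the highest list median, 3.23 over 34 measured genes. Of these 13 rose and 0 fell (19 and 1 unadjusted), and 20 were past 4-fold higher on both arrays. Pou5f1 encodes Oct4, the core factor of pluripotent cells, and its signal was 1.3 in the fibroblasts, 1787 on array 1 and 2069 on array 2 (8.26 ± 2.03, adjusted p = 0.0241). The iPS and ES arrays stood at 2818 and 2462. L1td1, an RNA-binding protein of pluripotent cells, rose from 1.4 to 1977 and 2736 (8.51 ± 2.05, adjusted p = 0.0226). The iPS- and ES-derived primary neurosphere arrays, which enter the shared spread, stood at 9.6 and 1174.1 for Pou5f1 and 7.9 and 1010.9 for L1td1. Both calls were lost without either sphere array, with adjusted p = 0.0797 and 0.0757 for Pou5f1 and 0.072 and 0.0744 for L1td1 (without arrays 1 and 2). Sall4, a zinc finger factor that works with Oct4, rose from 0.3 to 288 and 732 (6.45 ± 1.03, adjusted p = 0.00513) and kept its call in all 22 other settings. The count of 13 is among the least steady here: it was 7 without array 1, 4 without array 2, 6 without either embryonic fibroblast-derived array and 20 without either primary neurosphere array.

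The list did not reach the pluripotent references evenly. Nanog stood at 5.6 in the fibroblasts, 145 on array 1 and 402 on array 2, below 2779 in iPS and 2389.6 in ES cells, and was not called (adjusted p = 0.18, 0.0424 with only the 3 arrays, 0.00884 and 0.00902 without either primary neurosphere array). Zfp42, also known as Rex1 and a marker of naive pluripotent cells, stood at 3.6 in the fibroblasts, 5.2 on array 1 and 79.1 on array 2, against 3058 and 4299. Dppa5a, another naive marker, stood at 8.1 in the fibroblasts, 259 on array 1 and 3588 on array 2, and Dppa4 at 4.7 in the fibroblasts, 9.3 on array 1 and 126 on array 2. For these 4 genes array 2 was above array 1, as it was for 29 of the 34, beside 50.6% of all genes. Klf4, a reprogramming factor that fibroblasts also make, was at 999, 131 and 339.7 on 1 probe set and at 269, 569 and 584 on another, so its direction was not settled. The labels do not say whether any factor was introduced. For Pou5f1, Sox2, Klf4 and Mycn, endogenous and any introduced transcripts were not separated here.

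**Figure D3:**
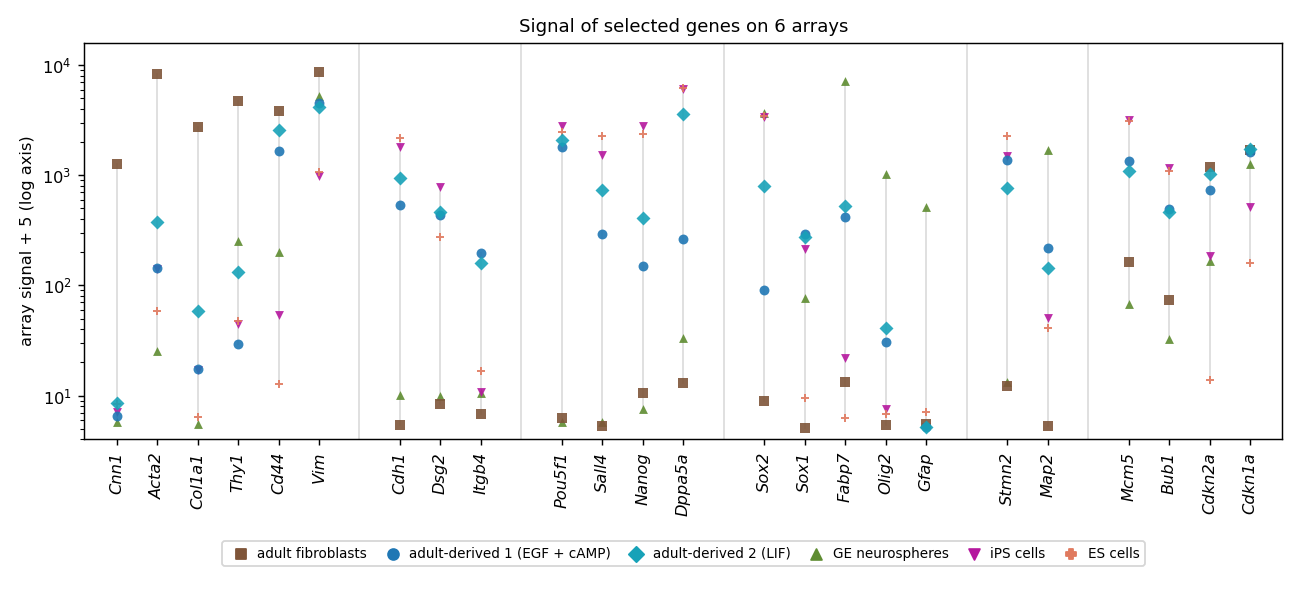
Signal + 5 on a logarithmic axis for 24 genes on 6 arrays, in blocks for fibroblast, epithelial, pluripotency, neural, neuronal and cell cycle genes. Each symbol is 1 array. Both sphere arrays sit far below the fibroblasts for Cnn1 and Col1a1, near the iPS and ES cells for Pou5f1, between fibroblasts and GE neurospheres for Fabp7 and Olig2, and with the fibroblasts for Cdkn2a and Cdkn1a.

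Neural stem and progenitor genes had 13 of 31 higher and 3 lower, with a median of 1.5, and 6 higher without array 1. Sox2, shared by pluripotent and neural stem cells, stood at 4 in the fibroblasts, 85.6 on array 1 and 791 on array 2 (4.90 ± 0.95, adjusted p = 0.0101), with 3703 on the GE array. Its call was lost when only the 3 compared arrays were fitted. Fabp7, a fatty acid-binding protein of radial glia, stood at 8.4 in the fibroblasts, 411 on array 1 and 518 on array 2 (5.12 ± 0.62, adjusted p = 0.00214). The GE array stood at 7197, above the spheres, with a difference of spheres minus GE of -3.95 (adjusted p = 0.00311). Fabp7 was at 16.9 and 1.2 in iPS and ES cells. Prom1, the surface marker CD133, rose from 5.3 to 241 and 678 (5.31 ± 1.03, adjusted p = 0.0101), above its GE signal of 392 on array 2 only. Sox1, a neuroectoderm factor, rose from 0.1 to 287 and 272 (5.80 ± 1.37, adjusted p = 0.0211), and was not called without array 1 (adjusted p = 0.0754) or array 2 (0.0646).

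Olig2 and Pax6 rose from near 0 and were called lower than in GE neurospheres. Olig2, a bHLH factor of ventral progenitors, went from 0.4 to 25.8 and 36.1 (2.72 ± 0.43, adjusted p = 0.00513), against 1032 on the GE array (adjusted p = 0.000396). Pax6, a forebrain progenitor factor, went from 3.5 to 31.6 and 29.7 (2.07 ± 0.50, adjusted p = 0.023), against 248 (adjusted p = 0.00538), and its call against the fibroblasts was lost without array 1 (adjusted p = 0.0811) or array 2 (0.0657). Nestin, Nes, the intermediate filament used to mark neural stem cells, went from 34.9 to 201 and 156 (2.19 ± 0.60, adjusted p = 0.0352), and both sphere arrays lay above the GE signal of 133. Its call was lost without array 1 (0.127), array 2 (0.0767), either secondary neurosphere array (0.0539 and 0.0535) or either embryonic fibroblast-derived array (0.0629 and 0.0628). Not called, and low on both sphere arrays, were the orphan receptor Nr2e1 at 0.4, 5 and 7.6, the homeodomain factor Lhx2 at 0.2, 6.3 and 15.8 and the proteoglycan Ncan at 0.7, 16.4 and 15.5. These stood at 105, 282 and 2142 on the GE array.

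Of the 4 astrocyte markers, 3 were not called and 1 fell. Gfap, the astrocyte filament, was at 0.5, 0.2 and 0.2, the glutamate transporter Slc1a3 at 22.1, 15 and 31.7 and the water channel Aqp4 at 2.3, 12 and 0.5, where the GE array stood at 514, 2777 and 2742. Aldh1l1, a folate enzyme of astrocytes named after its values were seen, fell from 114 to 9.7 and 21 (-2.60 ± 0.53, adjusted p = 0.0124), against 598 on the GE array. Of 20 radial glia and astrocyte genes 2 rose and 3 fell (1 fell without array 1, 5 without the iPS or the ES array). The shares of all genes called were 12.3% higher and 7.22% lower. The 2 listed genes that rose were Clu, a secreted chaperone, at 3.2, 90.3 and 316 (4.41 ± 0.63, adjusted p = 0.00388), and Aldoc, a glycolytic aldolase of astrocytes, at 36.8, 378 and 464 (3.34 ± 0.26, adjusted p = 0.000495). Of 15 oligodendrocyte lineage genes 3 rose and 1, Pdgfra, fell, beside the same shares of all genes. Sox10, which specifies the lineage, was at 1.9, 1.4 and 6.1, the receptor Gpr17 at 0.6, 0.9 and 0.2 and the myelin protein Mbp at 4.9, 11 and 26.2, against 422, 1434 and 6578 on the GE array. Mal, a raft proteolipid of myelin that epithelia also make, went from 0.1 to 1190.1 and 966 (7.72 ± 0.44, adjusted p = 0.000155), above the GE signal of 55.9.

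Of 29 neuronal genes 8 rose and 1 fell (0 fell without array 1), with a median of 1.64. The shares of all genes called were 12.3% higher and 7.22% lower. Stmn2, a microtubule regulator of growing neurites, stood at 7.1 in the fibroblasts, 1368 on array 1 and 767 on array 2 (6.41 ± 0.68, adjusted p = 0.00142). The light neurofilament gene Nefl went from 2.7 to 463 and 244 (5.47 ± 0.86, adjusted p = 0.00493), and Map2, a dendritic microtubule protein, from 0.3 to 216 and 139.9 (5.08 ± 0.70, adjusted p = 0.0036). These rises were not all neuronal in the references, since Stmn2 stood at 1506 and 2276 in iPS and ES cells and Nefl at 124 and 379, while Map2 stood at 45.7 and 36.3. Tubb3, the neuronal tubulin, was at 195, 138 and 148 and not called, and Rbfox3, Syn1 and Slc32a1 of mature neurons were at 3.1, 8.8 and 11.3, 8, 10.2 and 7.3 and 0.7, 0.9 and 0.8.

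Of the lists of other cell types below, all but the adipocyte list had called genes in both directions, beside 19.5% of all genes called. In the neural crest, melanocyte and Schwann list 3 of 13 rose and 2 fell (1 without array 1), with Tfap2a, a factor of neural crest and surface ectoderm, at 17.9, 209 and 379 (3.65 ± 0.72, adjusted p = 0.011) and Kit among those that rose. Of 13 blood and macrophage genes 2 rose and 1 fell, the 2 turning to 0 without array 1 and to 1 without any 1 of array 2 and the iPS, ES, primary and secondary neurosphere arrays. The genes that rose were Ptprc, the pan-leukocyte antigen CD45, from 4.7 to 90.6 and 40.2 (2.76 ± 0.81, adjusted p = 0.0446), and Laptm5, a lysosomal protein of blood cells, from 12 to 151 and 108 (2.96 ± 0.68, adjusted p = 0.0192). Laptm5 stood at 356 and 301 in iPS and ES cells. The gene that fell was the macrophage receptor Csf1r, from 307 to 12.6 and 14.4 (-4.08 ± 0.65, adjusted p = 0.00513). The macrophage gene Lyz2 stood at 348, 11 and 22.7. The 5 measured blood markers summed to 698 in the fibroblasts, 143.5 on array 1 and 125 on array 2, and the part of such cells in the fibroblast signal was not tested. Of 11 endothelial genes 1 rose and 1 fell, and 2 rose with the block on origin or without any 1 of the iPS, ES and embryonic fibroblast-derived arrays. The one that rose was Tek, an angiopoietin receptor, at 14, 243 and 249 (3.72 ± 0.69, adjusted p = 0.00869), while the defining genes Pecam1 and Cdh5 were at 6, 11.6 and 2 and 4.4, 3.9 and 8.9. Of 5 adipocyte genes 2 fell and 0 rose (2 and 1 unadjusted), with 0 falling without array 1 and 1 with the block on origin or without any 1 of array 2 and the iPS, ES and primary neurosphere arrays.

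Genes of cell division were higher on both sphere arrays. Of 33 DNA replication genes 25 rose and 0 fell (29 and 0 unadjusted), and both arrays were above the fibroblasts for all 33. Of 28 mitosis genes 22 rose and 0 fell (26 and 0 unadjusted), again with all 28 above on both arrays. The medians were 2.02 and 2.01, and 14 genes of each list were called without array 1. Lig1, the DNA ligase that seals Okazaki fragments, stood at 63.7 in the fibroblasts, 487 on array 1 and 518 on array 2 (2.88 ± 0.38, adjusted p = 0.00299). Mcm5, a subunit of the replicative helicase, went from 159 to 1334 and 1085 (2.88 ± 0.37, adjusted p = 0.00269), and Gins1, a helicase cofactor, from 31 to 245 and 226 (2.74 ± 0.35, adjusted p = 0.00276). Among mitotic genes, the checkpoint kinase Bub1 went from 68 to 487 and 462 (2.72 ± 0.41, adjusted p = 0.00453). Incenp, the scaffold of the Aurora B complex, went from 159 to 1044 and 844 (2.52 ± 0.34, adjusted p = 0.00338). Array 2 was above array 1 for 10 of the 33 and 3 of the 28, beside 50.6% of all genes. Against the GE array 27 of 33 and all 28 were called higher and 0 lower, and against the pluripotent cells 13 and 12 were called lower and 0 higher. Over all genes 12.4% were called higher against GE and 6.41% lower against the pluripotent cells. The latter count over all genes was unsteady, at 875, and 2313 with every array at the same median. Mcm5 was at 62.7 on the GE array and 3170 and 3135 in iPS and ES cells, and Bub1 at 27.3, 1151 and 1079.

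Replication genes are known targets of the E2F factors and mitotic genes of a complex that works with the CCAAT-binding factor NF-Y, so their RefSeq promoters were searched in the same way. The E2F motif was TTTCCCGC or TTTGGCGC and the CCAAT box was CCAAT, both on either strand, and matches were allowed to overlap. An E2F motif was in 10 of 26 replication promoters (38.5%) and 0 of 23 mitosis promoters, against 1.80% of all 27025. A CCAAT box was in 19 of 23 mitosis promoters (82.6%) and 16 of 26 replication promoters (61.5%), against 41.1% of all. No test was made of these shares, and a match does not show binding. The lines below show 1 promoter of each list that holds its motif, as the 250 bases before the start in GRCm38.p6, with matches in capitals. Cdc6, which loads the helicase and went from 23.3 to 194 and 129, is shown for its E2F motif and was picked after its values were seen. Its bases are chr11:98907901-98908150 on the forward strand, with the motif 138 bases before the start. Those of Bub1 are chr2:127831860-127832109 on the reverse strand, with CCAAT boxes 68 and 42 bases before the start.
Cdc6: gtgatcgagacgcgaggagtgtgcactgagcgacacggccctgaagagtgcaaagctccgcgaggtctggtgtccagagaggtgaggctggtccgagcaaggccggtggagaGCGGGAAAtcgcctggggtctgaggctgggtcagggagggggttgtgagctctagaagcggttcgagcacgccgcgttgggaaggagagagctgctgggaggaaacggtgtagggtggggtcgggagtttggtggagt
Bub1: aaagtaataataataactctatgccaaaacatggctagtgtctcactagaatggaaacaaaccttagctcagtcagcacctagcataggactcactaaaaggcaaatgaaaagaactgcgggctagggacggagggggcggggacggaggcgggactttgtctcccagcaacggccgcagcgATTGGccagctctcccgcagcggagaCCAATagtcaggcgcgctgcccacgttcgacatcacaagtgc

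The brakes of the cycle did not fall in step. Cdkn2a, the locus of the senescence proteins p16Ink4a and p19Arf, stood at 1183 in the fibroblasts, 734 on array 1 and 1023 on array 2 (-0.45 ± 1.24, adjusted p = 0.836), against 8.9 in ES cells. Cdkn1a, the inhibitor p21, stood at 1686 in the fibroblasts, 1622 on array 1 and 1723 on array 2 (-0.01 ± 0.59, adjusted p = 0.992), with 1262 on the GE array and 506 and 153 in iPS and ES cells. For neither gene was a change from the fibroblasts found, and the SE of Cdkn2a leaves room for a sizeable one. The difference of Cdkn1a was 0.16 under quantile normalization and 0.03 without array 1. Cdkn2b stood at 344, 99 and 86.4 (adjusted p = 0.0531) and was called lower in 10 of 22 other settings, among them each fit without the iPS or the ES array (adjusted p = 0.00603 and 0.00571). Of 33 G1 and p53 genes 8 rose and 1 fell, beside 12.3% and 7.22% of all genes. Without array 1 there were 1 and 0, without array 2 there were 3 and 0, and 2 fell with the block on origin or without any 1 of the iPS, ES and primary neurosphere arrays. Perp, a p53 target that is also a desmosome protein, went from 44.4 to 1218 and 1026 (4.51 ± 0.95, adjusted p = 0.014), with adjusted p = 0.0589 without array 1.

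Of 18 genes of DNA methylation and its removal 9 rose and 0 fell (11 and 0 unadjusted), 5 without array 1, with a median of 1.5. Tet1, a dioxygenase that oxidizes methylcytosine, stood at 8.9 in the fibroblasts, 446 on array 1 and 489 on array 2 (5.09 ± 0.46, adjusted p = 0.000873). Its relative Tet2 went from 44.5 to 284 and 236 (2.41 ± 0.28, adjusted p = 0.00191). Uhrf1, which brings the maintenance methylase to replicating DNA, went from 72.2 to 913 and 726 (3.41 ± 0.40, adjusted p = 0.00201). The de novo methylase Dnmt3b differed between the spheres, at 11.8 in the fibroblasts, 260 on array 1 and 1059 on array 2, and was not called (adjusted p = 0.0664). Its cofactor Dnmt3l, at 74.2, 10.4 and 190.3, lay below the fibroblasts on array 1 and above them on array 2.

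Hox genes, which record the position of a cell along the body axis, did not pass in either direction. Of 25 measured 0 were called by limma, and at an unadjusted p under 0.05 there were 0 higher and 2 lower. A pseudocount of 20 called 3 lower, and 1 was called lower with the block on origin or without any 1 of the iPS, ES and primary neurosphere arrays. Both sphere arrays were below the fibroblasts for 13 of the 25 and above them for 5. The median was -0.32. Hoxd8 stood at 216 in the fibroblasts, 163 on array 1 and 182 on array 2, against 6.9 on the GE array and 17.3 and 5.6 in iPS and ES cells. Hoxb2 stood at 134, 121 and 87.9 and Hoxc6 at 86.4, 67.8 and 44.9, against 7.4 and 4.3 on the GE array. Among those with the lowest differences were Hoxb9, at 146, 32.5 and 10.9 (-2.63 ± 0.84, adjusted p = 0.0584), and Hoxc8, at 873, 274 and 192 (-1.90 ± 1.49, adjusted p = 0.407). Missing calls do not show equal levels.

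**Figure D4:**
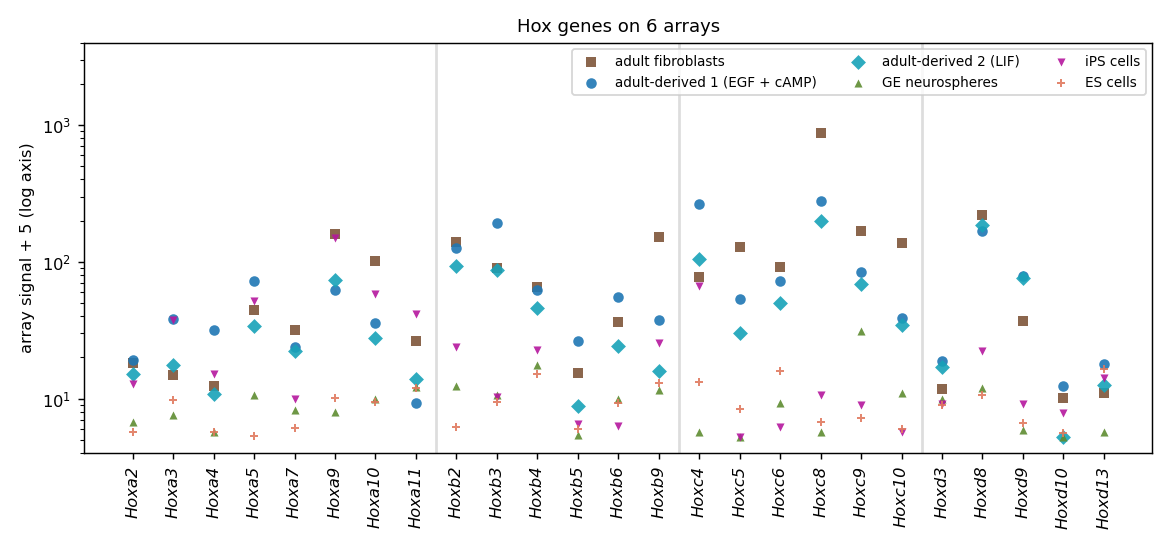
Signal + 5 on a logarithmic axis for the 25 measured Hox genes on 6 arrays, ordered by cluster. Brown squares are fibroblasts, and blue circles and turquoise diamonds are arrays 1 and 2. In Hoxb2, Hoxc6 and Hoxd8 the sphere arrays stand near the fibroblasts and above the GE array, and in Hoxb9 and Hoxc8 below the fibroblasts.

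Metabolic and signalling lists are described by single genes, beside 19.5% of all genes called, 12.3% higher and 7.22% lower. No set test was made of them. Of 23 glycolysis and hypoxia genes 2 rose and 2 fell (1 fell without array 1 or array 2, and 5 without either primary neurosphere array), and 4 rose with the block on origin. Slc2a3, the high-affinity glucose transporter of neurons and pluripotent cells, stood at 34.3 in the fibroblasts, 1547 on array 1 and 3122 on array 2 (5.81 ± 1.06, adjusted p = 0.0081), while the glycolytic enzyme genes Ldha and Pkm stood at 4532, 3464 and 3325 and 2290, 1985 and 2057. Of 15 one-carbon and amino acid genes 3 rose and 0 fell (3 and 0 unadjusted), 1 without array 1. Among them was Mthfd1, a folate enzyme, at 177, 1122 and 1099.8 (2.61 ± 0.45, adjusted p = 0.00703). Of 24 interferon and MHC class I genes 1 rose, a call lost without array 1, array 2 or either secondary neurosphere array. The 3 that fell were Ifit1, Ifit2 and Ifit3, which bind foreign RNA, and Ifit1 was not called without array 1 (adjusted p = 0.0767). Ifit2 went from 127 to 6.8 and 8.1 (-3.41 ± 0.57, adjusted p = 0.00614), while the antiviral membrane protein gene Ifitm3 stood at 3975, 4378 and 5201. Of 19 LIF and STAT3 response genes 3 rose (1 without array 2) and 2 fell. The 2 that fell were 0 without array 1 and 1 without any 1 of array 2 and the iPS, ES, secondary neurosphere and embryonic fibroblast-derived arrays. Pim3, a STAT3-induced kinase, stood at 90.6 in the fibroblasts, 708 on array 1 and 786 on array 2 (2.97 ± 0.32, adjusted p = 0.00154), and Socs3, the feedback inhibitor, at 490.2, 1306 and 1716, which did not pass (adjusted p = 0.0923). Lcn2, a secreted target, was at 4, 8.9 and 299, high only on the array given LIF among these 3.

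Several of the genes with the largest differences were outside the lists. Klk1, a tissue kallikrein whose signal is uncertain because near-identical family members exist, stood at 0.3 in the fibroblasts, 3384 on array 1 and 5517 on array 2 (9.67 ± 0.40, adjusted p = 4.44e-05). Hbb-y, an embryonic globin chain that shares sequence with other beta globins, stood at 0.4 in the fibroblasts, 5046 on array 1 and 1102 on array 2 (8.77 ± 1.0, adjusted p = 0.00178). Mycn, a Myc family factor of progenitors, was at 6.8, 6645 and 5809 on its brightest probe set and at 15.3, 141 and 451 on another, so the size of its rise differs between probe sets. Aldh3a1, an aldehyde dehydrogenase of the cornea, was at 2.2, 1876 and 1724, the chloride channel Ano1 at 0.9, 2914 and 1407, the amino acid transporter Slc38a5 at 0.7, 1489 and 1078, and Podxl, a sialomucin of stem and epithelial cells, at 0.5, 1006 and 719.8. Each of these 7 was called in all 22 other settings. Opposite them were Hspb7, a small heat shock protein of muscle, at 1017, 7.3 and 6.5 (-6.43 ± 0.52, adjusted p = 0.000501), and Serpinf1, the secreted protein PEDF, at 6537, 17.4 and 257. The Serpinf1 call was lost without array 1 (adjusted p = 0.11) and without either embryonic fibroblast-derived array (0.0513).

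Genes of which the sphere arrays lay on opposite sides of the fibroblasts were described without a test. In 1989 genes (14.6%) the arrays did not share a side. The widest were Saa3, an acute-phase protein, at 214 in the fibroblasts, 38.8 on array 1 and 2345 on array 2, and Mmp3, the protease stromelysin 1, at 375 in the fibroblasts, 31.4 on array 1 and 1436 on array 2. Both were low on array 1 and high on array 2, so without array 1 the Mmp3 difference was 1.92 and Saa3 was called higher (adjusted p = 0.0296), and without array 2 Saa3 was -2.32. Fabp3, at 174, 37.5 and 627, Col2a1, at 17.9, 2 and 60.8, Reg1, at 23.8, 5.1 and 67.6, and Plagl1, at 282, 88.3 and 716, had the same order. Between the 2 sphere arrays 290 genes differed by 4-fold or more (2.12%), and 249 of these were higher on array 2. This compares with 1766 for array 1 and 1681 for array 2 against the fibroblasts. The median absolute difference was 0.29 between the spheres, and 0.72 and 0.68 against the fibroblasts. With 1 array for each medium, an effect of LIF or of EGF and cAMP cannot be told apart from any other difference between these cultures.

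Reference arrays gave a further view of how much of each programme was present, by bounds chosen after the values were seen. Fibroblast-high genes, at a signal of 200 or more in the fibroblasts and under 50 on the GE, iPS and ES arrays, numbered 218. Both sphere arrays were under 50 for 85 of them (39.0%) and at 200 or more for 17 (7.80%). Their median signal was 458 in the fibroblasts, 34.6 on array 1 and 70.5 on array 2, and array 2 was the higher in 174 (79.8%). A gene's signal as a share of its fibroblast signal had a median of 6.64% on array 1, with quartiles of 2.33% and 18.1%, and of 11.7% on array 2, with quartiles of 5.87% and 28.2%. The genes were picked by a high value on the fibroblast array, which is also the base of these shares. Low shares are thus in part built in. The shares ran from 0.0962% to 111% on array 1 and from 0.275% to 1098% on array 2, so no single share describes the fibroblast signal that remained. Whether unconverted fibroblasts are part of it was not tested.

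GE-high genes, defined in the same way, numbered 236. Both sphere arrays reached 200 for 4 (1.69%) and were under 50 for 164 (69.5%). The 4, named after their values were seen, were Fabp7, Arhgef26, Pde9a and Cdh13. Pluripotent-high genes, at 200 or more on both the iPS and ES arrays and under 50 in the fibroblasts and on the GE array, numbered 115. Both sphere arrays reached 200 for 28 (24.3%) and were under 50 for 7 (6.09%), with median signals of 144 on array 1 and 164 on array 2 beside 481 and 491 in iPS and ES cells. In all, 25 genes were at 200 or more on both sphere arrays and under 50 on the fibroblast, GE, iPS and ES arrays. Among them, picked after their values were seen, were the opioid peptide precursor Penk at 34.1, 858 and 1597, the forkhead factor Foxd1 at 2.6, 1095 and 854, the mesothelial protein Msln at 26.3, 723 and 1459.6 and the laminin chain Lama3 at 1, 434 and 592. Under bounds of 500 and 50 both sphere arrays reached the upper bound for 3.88% of fibroblast-high, 0% of GE-high and 11.9% of pluripotent-high genes, and under 200 and 20 for 3.74%, 0.752% and 22.4%. The sets were chosen by a high value on 1 array each, or on both of 2 arrays for the pluripotent set, so their shares are not to be ranked against each other.

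**Figure D5:**
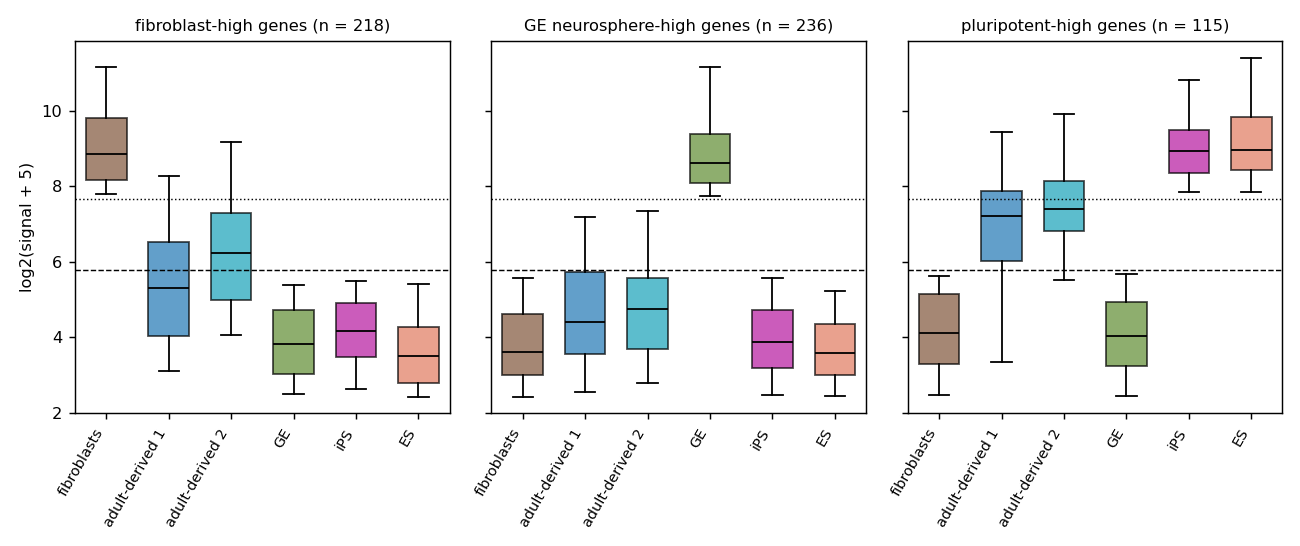
Signals on log2(signal + 5) of 218 fibroblast-high, 236 GE-high and 115 pluripotent-high genes on 6 arrays. Boxes span the quartiles with the median as a line, whiskers the 5th to 95th percentile, and the dotted and dashed lines mark signals of 200 and 50. The sphere arrays lie below the fibroblasts in the first panel, near the bottom in the second and close to the upper bound in the third. In each panel the reference arrays are high or low by the choice of genes.

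Across all genes, the spheres differed from the GE neurospheres in 3209 genes (23.5%), 1699 higher and 1510 lower, and from the pluripotent cells in 2926 (21.4%), 2051 higher and 875 lower. With every array at the same median the pluripotent split turned to 1322 higher and 2313 lower. Without array 1, array 2 and the ES array there were 1262 (163 lower), 1256 (274 lower) and 1483 (387 lower) calls against the pluripotent cells, and 455 lower without either embryonic fibroblast-derived array. Against GE there were 2062 without array 1 and 2020 without array 2. These comparisons share the sphere arrays with the one above and are given for the levels only. Of the 93 called genes named by the rule, 52 kept their call against the fibroblasts in all 22 other settings, and 0 changed direction.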

How the data were processed

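RNA of 12 mouse samples was measured on Affymetrix mouse genome arrays, and 3 of them are compared here. The deposited signal intensities are MAS5 values of the authors, and the submitters' processing notes name Affymetrix Expression Console 1.1. The values themselves show a linear scale with the same trimmed mean on each array. Of 45101 probe sets 34945 name 1 gene, 932 several and 9160 none in the platform annotation, beside 64 control probe sets. Each gene was represented by its probe set with the highest mean signal among those naming 1 gene and reaching a signal of 20 on at least 1 array, which left 13650 genes. From the deposited intensities log2(signal + 5) was computed and fitted over all 12 arrays with limma 3.58.1 in R 4.3.3, with an intensity trend and Benjamini-Hochberg adjustment over all genes. The fit was tested on simulated data. The number of arrays limits the precision. Members, gene lists and tests were chosen with earlier results of these data known. The named genes are the 12 highest and 12 lowest called differences, the 6 genes farthest on opposite sides, the 3 largest called differences of each list and 29 well-known markers, and uncalled list members may be named as values. Promoters are RefSeq's in GRCm38.p6. In 3 of the groups 1 array is of iPS and 1 of ES origin, per the labels, which pairs them by cell line. The correlations of their deviations from the group means were 0.252, 0.0578 and 0.425. The fit reported is without this block, and the block's value is given where it changes a call. Scaling, pseudocount, filter, probe set choice, model and each array left out were varied.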

Additional observations from a re-analysis of the deposited data

How the results depend on the processing

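With every array at the same median, the counts against pluripotent cells were 1322 higher and 2313 lower. A pseudocount of 1 gave 1036 genes and of 20 gave 339 genes past 4-fold higher on both sphere arrays. With every probe set tested on its own, which tests more features, 4421 were called against fibroblasts (2707 higher, 1714 lower), 5173 against GE neurospheres (2593 and 2580) and 4671 against pluripotent cells (3226 and 1445), with 872 past 4-fold lower. With only the 3 compared arrays, which leaves fewer samples, 1523 genes were called (919 higher, 604 lower).

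Leaving out 1 array at a time gave 1322 to 3217 calls against fibroblasts (861 to 2004 higher, 461 to 1213 lower), 2020 to 3718 against GE neurospheres (1007 to 1933 and 942 to 1785) and 1256 to 3213 against pluripotent cells (982 to 2189 and 163 to 1090). Genes past 4-fold on both arrays ranged from 682 to 1052 higher and from 548 to 835 lower. The lowest counts of calls came without array 1 or array 2, and the highest 4-fold counts too, since 1 array then decides. Of 93 called named genes, 28 lost the call without array 1, 15 without array 2 and 21 with only the 3 arrays, and 0 changed direction.

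Among uncalled genes, Cdkn1a turned to 0.16 under quantile normalization and ranged from -0.055 to 0.031 with 1 array left out. Myc was -0.15 at the same median. With a pseudocount of 20 Col2a1 was 0.15 and Reg1 0.10, and with the mean of probe sets Fabp3 was 0.21 and Plagl1 0.082. The genes on opposite sides follow the array kept: without array 2 and without array 1, Saa3 was -2.32 and 3.43, Mmp3 -3.38 and 1.92, Fabp3 -2.08 and 1.82, Col2a1 -1.71 and 1.52, Reg1 -1.51 and 1.33, and Plagl1 -1.62 and 1.33. Beyond what its construction shows, the cause of each shift was not tested.

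The compared groups share only 1 replicate number, so no pairing of spheres with fibroblasts could be fitted. The iPS or ES origin as a replicate block gave 3404 calls (2157 higher, 1247 lower). It called Snai2 and Cdkn2b lower and lost Lpl among the named genes, and changed no other call of theirs. Signals under 20 are near background, where differences have little precision.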

Other observations

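Imprinted genes were looked at after the values were seen. Meg3, the maternally expressed noncoding RNA of the Dlk1-Dio3 domain, stood at 3254 in the fibroblasts, 75.9 on array 1 and 123 on array 2 (-5.0 ± 0.50, adjusted p = 0.00125), and Rian, a noncoding RNA of the same domain, at 2516 in the fibroblasts, 50.9 on array 1 and 131 on array 2 (-4.85 ± 0.70, adjusted p = 0.00417). The GE array stood at 46.3 and 24.2. Both sphere arrays lay between the GE and the fibroblast arrays in both genes. The paternally expressed Peg3 stood at 254 in the fibroblasts, 1762 on array 1 and 2385 on array 2 (2.99 ± 0.62, adjusted p = 0.0129).

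Xist, the RNA that coats the inactive X chromosome, stood at 825 in the fibroblasts, 2342 on array 1 and 2111 on array 2, high on all 3 arrays.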
